A study of Mus musculus with 6 samples.

Results

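The 9 genes described here mark club cells and other secretory cells of the mouse airway. They are the secretoglobins Scgb1a1, Scgb3a1 and Scgb3a2, the lectin Reg3g, the receptor genes Cckar and Gabrp, the matrix protein gene Chad, the surface protein gene Lypd2 and the paraoxonase Pon1. Each was found by its symbol or accession among the array probes that are not controls, and all 9 were among the 20242 genes measured well enough to be tested. Each had 1 probe of 60 bases. Their levels were compared between lungs of 3 wild-type mice, numbered 11, 12 and 13, and 3 Nogo-A/B knockout mice, numbered 1, 11 and 12. Nogo-A and Nogo-B are the long protein products of Rtn4, a gene of the endoplasmic reticulum family of reticulons. All 6 mice were untreated males aged 8 weeks, and the strain, the allele and how it was made are not given in the sources used here. Total RNA of each lung was labelled with Cy3 and hybridised to an array of its own. The study's title places the comparison within work on asthma.

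Club cells are secretory cells of the conducting airway epithelium that do not carry cilia, coat the airway with protein and also act as progenitors of other airway cells. Secretoglobins are small secreted proteins of these cells, and Scgb1a1 is the classical marker of the type in mouse lung. Scgb3a1 is known from the larger, more proximal airways, where mucous cells are also found, and Reg3g is an antibacterial C-type lectin of epithelia under the control of cytokines that signal through STAT3. In RNA of a whole organ, fewer cells of a type and less RNA per cell cannot be told apart, which holds for every value below.

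Probe sequences are shown in part for 3 genes because the results turn on the contrast between Scgb1a1, the most typical club cell product, and Scgb3a1 and Reg3g. The first 30 bases of each probe, 5′ to 3′, were as follows, and no other probe of the array had the same sequence as any of the 9.
Scgb1a1: tgaagctcactggatttcagagatattcta
Scgb3a1: gttgaggggaacctgggaaaattctgcctg
Reg3g: gagtacagaattgacatcatgggttgatat
In the array files, on the build mm7, the Scgb1a1 probe lies on chromosome 19 from 8763869 to 8763928 on the minus strand. The Scgb3a1 probe lies on chromosome 11 from 49621744 to 49621803 on the plus strand, and the Reg3g probe on chromosome 6 from 78484334 to 78484393 on the minus strand. Probes of 5 more members lie on chromosome 5 from 53072113 (Cckar), 11 from 33504059 (Gabrp) and 94677861 (Chad), 15 from 74812804 (Lypd2) and 6 from 5121052 (Pon1). The files do not say whether these positions are exonic or in a UTR.

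RefSeq promoter sequence (GRCm38.p6) was found for 5 of the 9 genes. The 250 bases before the start of Scgb3a1 and of Reg3g are shown because these were the only members whose signals spanned over 2 log2 units across the lungs. Capitals mark exact matches, on either strand, to FOXA (TGTTTAC or TGTTTGC), NKX2-1 (CTCAAG or CACTTGA), C/EBP (TTGCNNAA), STAT (TTCNNNGAA) and TATA box (TATAAA) letters. The Scgb3a1 window is chr11:49663345-49663594 on the plus strand, and the Reg3g window is chr6:78468875-78469124 on the minus strand.
Scgb3a1: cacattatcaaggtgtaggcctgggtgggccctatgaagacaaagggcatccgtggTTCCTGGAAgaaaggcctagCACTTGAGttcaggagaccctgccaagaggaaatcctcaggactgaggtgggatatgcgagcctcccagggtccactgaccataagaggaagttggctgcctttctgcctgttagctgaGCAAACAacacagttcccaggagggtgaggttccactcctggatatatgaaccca
Reg3g: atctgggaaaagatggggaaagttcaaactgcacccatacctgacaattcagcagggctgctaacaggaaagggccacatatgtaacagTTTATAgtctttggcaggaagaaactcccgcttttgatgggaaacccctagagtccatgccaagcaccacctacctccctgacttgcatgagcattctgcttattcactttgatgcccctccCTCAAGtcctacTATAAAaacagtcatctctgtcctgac
The Scgb3a1 window held 1 STAT match, 1 FOXA match and a pair of overlapping NKX2-1 matches. The Reg3g window held 1 NKX2-1 match and 2 TATA box matches. The nearer TATA match began 27 bases before the start. Matches of this kind are common, since 7.29% of the 32851 windows of this length held FOXA letters, 14.9% NKX2-1, 9.56% C/EBP, 7.02% STAT and 12.4% TATA box letters. In the other windows, Chad held 2 overlapping FOXA matches and 1 TATA box match, Pon1 held 1 C/EBP match and Gabrp held none. A match describes letters in the window and does not show a binding site.

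The lungs differed in ways that bear on the comparison. There were 2 scan days, the first for wild type 13 and knockout 1 and 11 and the other for the remaining 3 arrays. The arrays lay on 3 slides. Wild type 13 and knockout 1 shared slide 1, and wild type 11, wild type 12 and knockout 12 shared slide 3. Knockout 11 was the only array of the series on slide 2. Having only 6 arrays limits the precision. The share of probes well above background lay between 68.9% and 78.0%. The 75th percentile of the signal, used for scaling, lay between 1086.3 in knockout 12 and 2343.1 in wild type 13. A probe for the transcript AK047982 in the Rtn4 locus was well above background in 3 of 3 wild-type lungs and in 0 of 3 lungs labelled knockout. A pair of Rtn4 probes for NM_194054 was well above background in all 6 lungs, and the brighter in the mean measured 1.69, 1.62 and 2.36 in wild-type lungs and 1.1, -0.71 and -1.79 in lungs labelled knockout, so that knockout 1 was the nearest to the wild type. The labels do not place these probes inside or outside the deleted part. Knockout 1 stood apart in its skeletal muscle transcripts. Over the 7 measured genes of a list of thyroid and skeletal muscle markers, the summed signal relative to the 75th percentile of the array was 341 in knockout 1 and between 0.652 and 6.85 in the other 5 lungs. Myh4, a myosin heavy chain of fast muscle, had a log2 signal of 7.22 in knockout 1 and between -3.41 and 2.12 elsewhere. The part of this tissue signal in the results was not tested, and knockout 1 was left out as an alternative where results rest on it. The labelled tissue showed its defining transcripts, with the surfactant gene Sftpc between 7.83 and 8.78 in all 6 lungs.

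Scgb3a1 and Reg3g were the members that separated the genotypes, and both were lower in all 3 knockout lungs than in any wild-type lung. The knockout mean was 7.33-fold lower for Scgb3a1 and 52.1-fold lower for Reg3g as measured, but neither passed the adjusted threshold, and the knockout lungs were spread over a wide range. Scgb1a1, Scgb3a2 and the other 5 members overlapped between genotypes, with differences from -0.25 to 0.37 on the log2 scale. Every signal below is the log2 ratio of the processed signal to the 75th percentile of its array, so that 0 is the level of a probe at that percentile and 1 unit is a 2-fold change. Levels of different probes cannot be set against each other on this scale.

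Scgb1a1, whose product is the main protein secreted by club cells, measured 8.11, 7.67 and 7.95 in wild type 11, 12 and 13 and 7.94, 8.08 and 8.57 in knockout 1, 11 and 12. The groups overlapped, and the highest and lowest of the 6 lungs were 0.90 apart. Wild-type lungs averaged 7.91 ± 0.22 (SD, n = 3) and knockout lungs 8.20 ± 0.33 (SD, n = 3). The log2 difference, knockout minus wild type, was 0.29 (SE 0.23, 95% interval -0.28 to 0.85), with an unadjusted p of 0.263 in limma. Its sign depended on the scaling, as quantile normalization gave -0.08. Before scaling, the processed signal was lowest in knockout 12, at 412862, and highest in wild type 13, at 577574. The 75th percentile of knockout 12 was 1086.3, against 1629.0 to 2343.1 on the other arrays. The high scaled value of knockout 12 thus rests on that percentile. Within scan day 1 the difference was 0.06 and within day 2 it was 0.68, and with 1 lung left out it lay between 0.10 (without knockout 12) and 0.41 (without knockout 1).

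Scgb3a2, a secretoglobin of the bronchial and bronchiolar epithelium, measured 5.88, 5.92 and 7.22 in wild-type lungs and 6.22, 6.87 and 6.89 in knockout lungs, in the same order of lungs. Wild type 13 was above every knockout lung, and the other wild-type lungs were below all of them. The log2 difference was 0.32 (SE 0.42, 95% interval -0.70 to 1.35), with an unadjusted p of 0.473 in limma. The lungs of day 1, with 1 wild-type lung, gave -0.67, and those of day 2, with 1 knockout lung, gave 0.99. Single lungs moved it from 0.09 (without wild type 11) and 0.11 (without wild type 12) to 0.76 (without wild type 13), the last at an unadjusted p of 0.0347 in limma.

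Scgb3a1 measured 5.21, 4.61 and 5.28 in wild-type lungs and -0.70, 3.96 and 3.22 in knockout lungs. All 3 wild-type lungs lay close together, knockout 11 and 12 lay below them, and knockout 1 lay far below both. Wild-type lungs averaged 5.04 ± 0.37 (SD, n = 3) and knockout lungs 2.16 ± 2.51 (SD, n = 3). Knockout minus wild type was -2.87 (SE 1.19, 95% interval -5.76 to 0.01), and in limma the unadjusted p was 0.0509 and the adjusted p was 0.9998. Among the knockout lungs alone the highest was 25.4-fold above the lowest, while the lowest wild-type lung was 1.57-fold above the highest knockout lung. The difference was -3.65 within day 1 and -1.69 within day 2, and -2.67 (SE 1.34) with scan day as a block. Without knockout 1 it was -1.44 (SE 0.34), and in limma the unadjusted p was 0.00835 and the adjusted p rounded to 1.0. The authors' own processed values gave -2.92 (SE 1.11), at an unadjusted p of 0.0347 in limma. With scan day as a block the unadjusted p in limma was 0.1. It was also above 0.05 without wild type 11 (0.105), 12 (0.0786) or 13 (0.118) and without knockout 12 (0.0543), and under 0.05 without knockout 11 (0.0216).

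Reg3g measured 2.40, 1.53 and 2.19 in wild-type lungs and -8.04, -0.26 and -2.68 in knockout lungs. In knockout 1 its probe was not well above background, and the value there was below the lowest detected signal of that array, -6.94. The 3 knockout lungs were spread over 7.78 log2 units and the 3 wild-type lungs over 0.87. Wild-type lungs averaged 2.04 ± 0.45 (SD, n = 3) and knockout lungs -3.66 ± 3.98 (SD, n = 3), and 2 of the 3 knockout arrays measured the gene. Its log2 difference was -5.70 (SE 1.87, 95% interval -10.25 to -1.15), and in limma the unadjusted p was 0.0218 and the adjusted p was 0.9998. With knockout 1 raised to the lowest detected signal, the difference was -5.33, a 40.3-fold lower mean. The lowest wild-type lung was 3.47-fold above the highest knockout lung. The difference was -6.35 within day 1, -4.64 within day 2 and -5.50 (SE 2.14) with scan day as a block. Without knockout 1 it was -3.51 (SE 0.76), and in limma the unadjusted p was 0.00550 and the adjusted p rounded to 1.0. The unadjusted p in limma was above 0.05 without wild type 11 (0.0542), without wild type 13 (0.0589) and within day 1 (0.191).

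An exact permutation test of 3 lungs against 3 cannot give a two-sided p below 0.1, and both Scgb3a1 and Reg3g reached that smallest value. Any gene whose groups do not overlap reaches it, so it adds nothing to their separation. Of all 20242 genes, 323 (1.6%) were separated with the knockout lower and 486 (2.4%) with it higher.

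Cckar encodes a receptor for the peptide cholecystokinin. Its signal was 0.46, 0.82 and 1.1 in wild-type lungs and 1.25, 0.57 and 1.39 in knockout lungs. Knockout 1 and 12 were above every wild-type lung and knockout 11 was not. This was a log2 difference of 0.28 (SE 0.29, 95% interval -0.43 to 0.98), with an unadjusted p of 0.377 in limma. It was 0.11 without wild type 11 or without knockout 12 and 0.53 without knockout 11. The lungs of day 1, with 1 wild-type lung, gave -0.19, and those of day 2, with 1 knockout lung, gave 0.75.

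Gabrp, the pi subunit of the GABA-A receptor, a chloride channel, measured 0.23, 0.76 and 1.67 in wild-type lungs and 1.11, 1.51 and 1.13 in knockout lungs. The wild-type lungs spread over 1.44 log2 units, more than the 0.40 between the knockout lungs. Between the genotypes it differed by 0.37 (SE 0.38, 95% interval -0.56 to 1.29), with an unadjusted p of 0.372 in limma. Its size rested on wild type 11 and 13, being 0.04 without the former and 0.76 without the latter, where the unadjusted p in limma was 0.0281. It was 0.14 with scan day as a block.

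Chad, or chondroadherin, is a leucine-rich matrix protein best known from cartilage. It measured -0.50, -0.65 and 0.46 in wild-type lungs and -0.73, -0.39 and -0.17 in knockout lungs, so that wild type 13 was above all other lungs. Knockout minus wild type came to -0.20 (SE 0.34, 95% interval -1.03 to 0.63), with an unadjusted p of 0.580 in limma, and it turned to 0.15 without wild type 13. Leaving out 1 lung at a time gave values between -0.41 and 0.15, and -0.05 without knockout 1. Within day 1, which has 1 wild-type lung, it was -1.02. Of the 9 measured cartilage genes, 5 were also highest in wild type 13 among wild-type lungs, and 3 of these, Acan, Comp and Chadl, were highest there among all 6 lungs. Col2a1, the main collagen of cartilage, was not, at 1.58, 1.72 and 0.31 in wild-type lungs. The median difference of the cartilage list was -0.14, with 0 genes at an unadjusted p under 0.05 in limma. Without knockout 1 the median was -0.34, with 1 gene lower at that threshold.

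Lypd2, a small protein of the LY6/PLAUR family anchored at the cell surface, measured 1.67, 1.55 and 2.50 in wild-type lungs and 1.50, 1.73 and 1.73 in knockout lungs. As for Chad, wild type 13 was above all other lungs. Its genotype difference was -0.25 (SE 0.29, 95% interval -0.95 to 0.44), with an unadjusted p of 0.406 in limma, and it lay between -0.43 (without wild type 12) and 0.04 (without wild type 13) with 1 lung left out. Within day 1, which has 1 wild-type lung, it was -0.88.

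Pon1 encodes an enzyme that hydrolyses lactones and organophosphates and circulates on high-density lipoprotein. It measured 2.93, 3.27 and 3.45 in wild-type lungs and 3.17, 3.55 and 3.54 in knockout lungs, the smallest spread over the 6 lungs of the 9 members at 0.62. On the log2 scale it differed by 0.21 (SE 0.21, 95% interval -0.31 to 0.73), with an unadjusted p of 0.368 in limma, and lay between 0.06 (without wild type 11) and 0.33 (without knockout 1) with 1 lung left out. Pon1 is made mainly in the liver, and the liver-type transcript Alb had its highest log2 signals, -1.26 and -1.45, in wild type 12 and knockout 1. The part of liver-type RNA in the Pon1 signal was not tested. The relatives Pon2 and Pon3 differed by -0.14 and 0.18, at unadjusted p of 0.558 and 0.323 in limma.

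**Figure D1:**
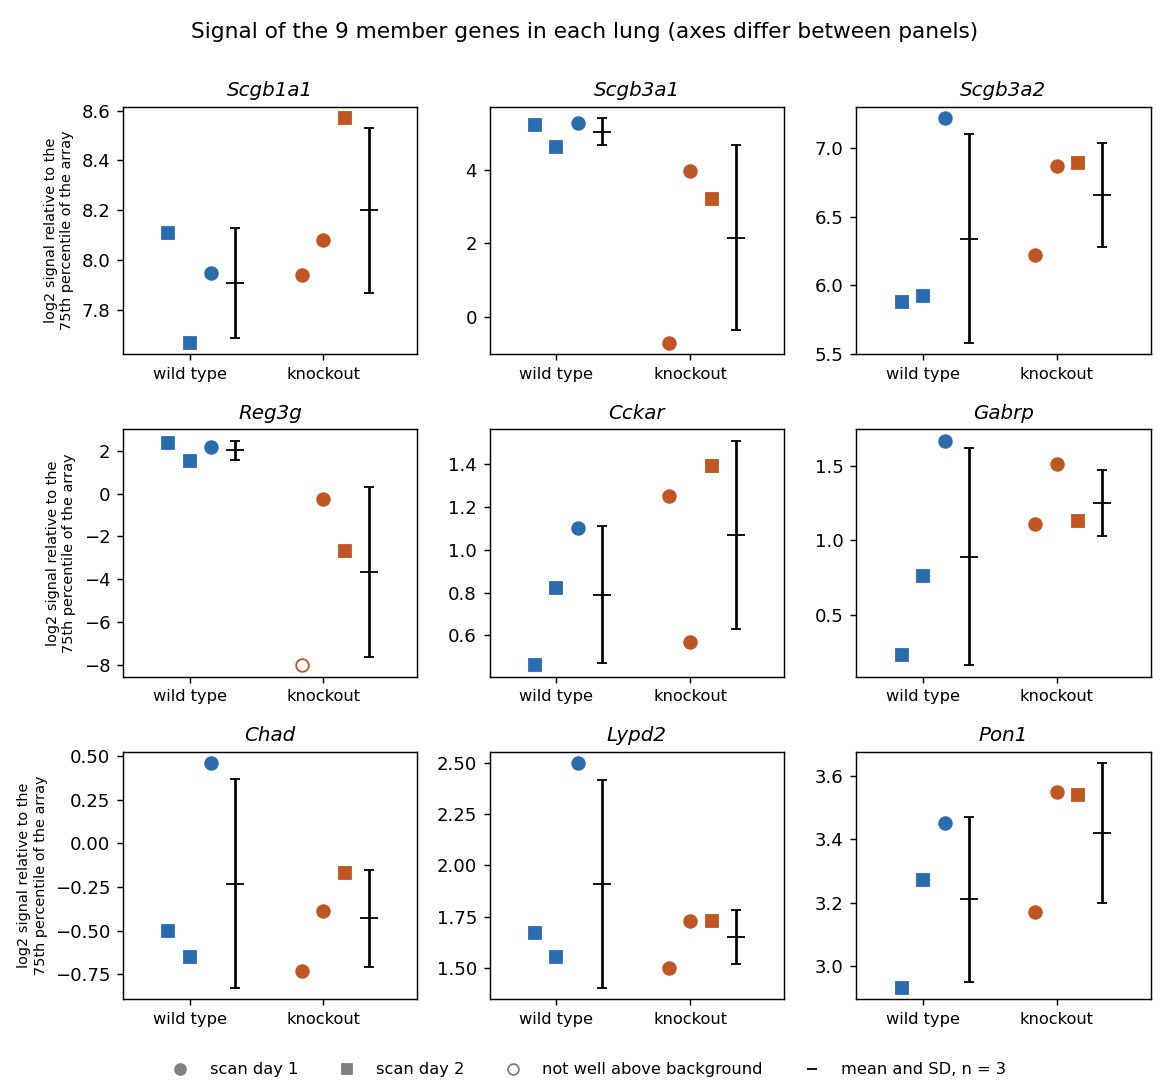
Signal of the 9 genes in each lung, as log2 relative to the 75th percentile of the array, with circles for scan day 1, squares for day 2, an open circle where the probe was not well above background, and bars for the mean and SD (n = 3). Scgb3a1 and Reg3g lie lower in all 3 knockout lungs, from -0.70 to 3.96 and from -8.04 to -0.26, while the other 7 overlap between genotypes.

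Counted over the 9 members, 5 were higher and 4 lower in the knockout, and 0 passed an adjusted p of 0.05 in limma. In all genes tested, 0 of 20242 (0%) passed. At an unadjusted p under 0.05, 1 member was lower and 0 were higher, while 131 genes (0.647%) were lower and 59 (0.291%) higher among all those tested. Every knockout lung was below every wild-type lung for 2 members and for 323 genes (1.6%), and above for 0 members and 486 genes (2.4%). The median difference over the members was 0.21 and the mean was -0.84, of opposite sign because of the large differences of Scgb3a1 and Reg3g. Over all genes the median was 0.01. Without those genes the median of the other 7 members was 0.28, and 5 of the 7 were higher in the knockout. Leaving out knockout 1 left 5 members higher and 4 lower. At an unadjusted p under 0.05 in limma, 2 members were then lower and 0 higher, against 126 genes (0.622%) lower and 63 (0.311%) higher. Both remaining knockout lungs were below all wild-type lungs for 2 members and 765 genes (3.78%), and above them for 1 member, Pon1, and 1230 genes (6.08%).

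**Figure D2:**
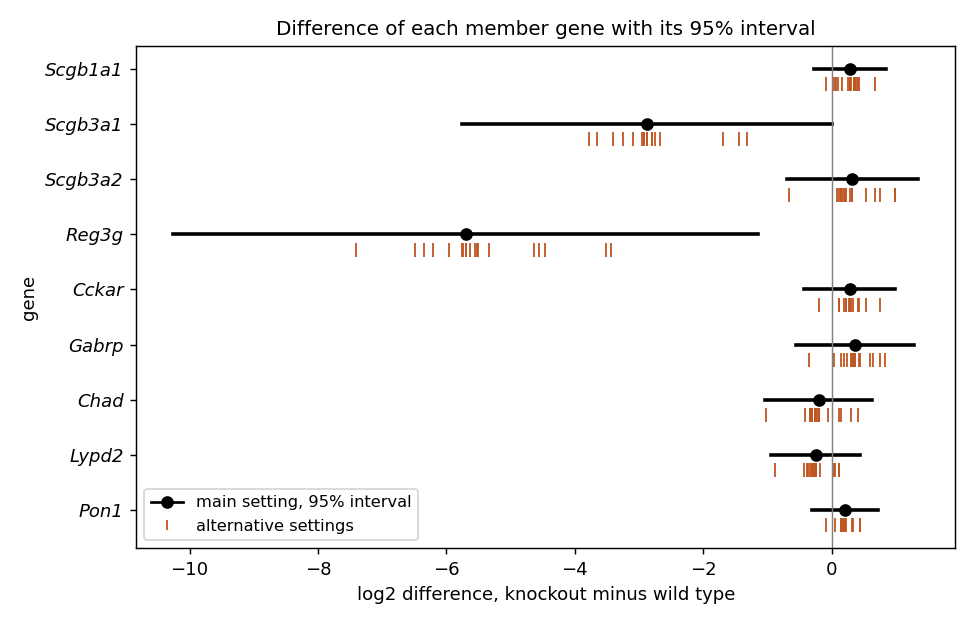
Log2 difference of each gene, knockout minus wild type, with its 95% interval (black) and its value under each alternative setting (orange marks). The values of Reg3g lie between -7.40 and -3.44 and those of Scgb3a1 between -3.78 and -1.32, and those of the other 7 lie between -1.02 and 0.99, on both sides of 0.

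The spread between lungs of a genotype was compared without a test. Scgb3a1 and Reg3g had SDs in the knockout 6.78 and 8.76 times those in the wild type, and 130 and 32 of the 20242 genes had a larger SD in the knockout. In the wild type 6953 and 5251 genes had a larger SD. The ratios rested on knockout 1, and for Reg3g on its undetected value there. Without that lung the SD of the remaining 2 knockout lungs was 0.52 for Scgb3a1 and 1.71 for Reg3g, or 1.42 and 3.76 times that of the wild type. The median SD of all genes was 0.32 in the knockout and 0.26 in the wild type. Of the other members, Scgb1a1 and Cckar also varied more among knockout lungs, whereas Scgb3a2, Gabrp, Chad, Lypd2 and Pon1 varied more among wild-type lungs. For Gabrp and Lypd2 the SD in the knockout was 0.22 and 0.13, against 0.73 and 0.51 in the wild type.

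Within each genotype the members moved largely by lung. Knockout 1 was the lowest knockout lung for 8 of the 9 members, and Cckar, lowest in knockout 11, was the exception. Its deviation from the knockout mean was -4.38 for Reg3g and -2.86 for Scgb3a1, and between -0.44 and 0.18 for the other 7. Wild type 13 was the highest wild-type lung for 7 members, and wild type 11 was the highest for Scgb1a1 and Reg3g. Wild type 13 deviated from the wild-type mean by 0.88 for Scgb3a2, 0.78 for Gabrp, 0.69 for Chad and 0.59 for Lypd2, but by 0.04 for Scgb1a1. Wild type 12 was lowest for 5 members and wild type 11 for 4. The median of the other 7 members, each centred on its mean over the 6 lungs, was -0.39, -0.31 and 0.60 in wild-type lungs and -0.15, 0.02 and 0.23 in knockout lungs. With 3 lungs of a genotype no correlation was computed, and values of 1 lung share an RNA sample and an array.

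**Figure D3:**
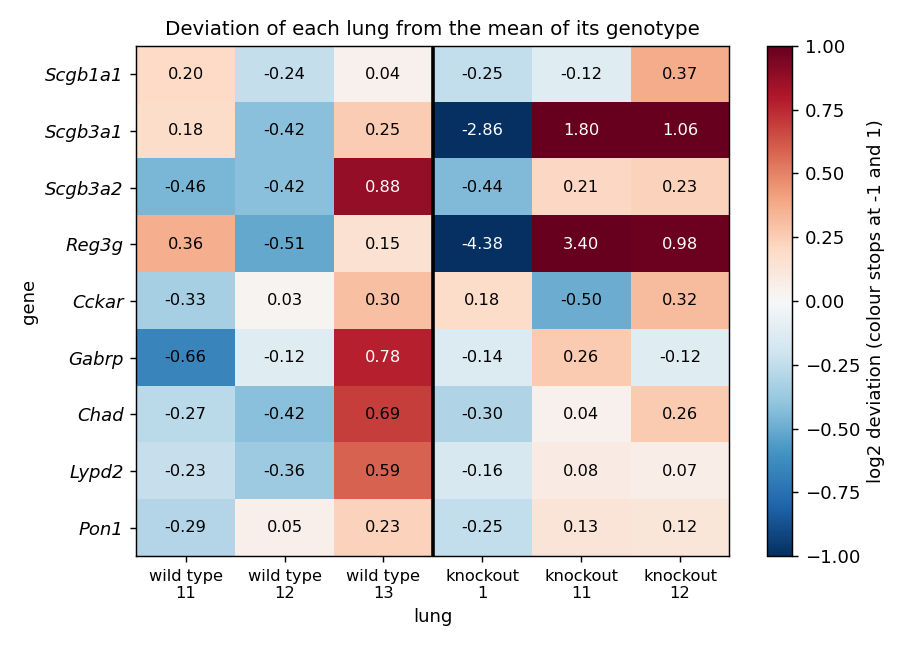
Deviation of each lung from the mean of its genotype for the 9 genes, in log2 units, with colours that stop at -1 and 1 and the value printed in each cell. Knockout 1 is negative in 8 of 9 rows, down to -4.38 for Reg3g, and wild type 13 is positive in all 9, up to 0.88 for Scgb3a2.

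Differences between members within a lung do not depend on the factor by which the array was scaled. Scgb3a1 minus Scgb1a1 was -2.90, -3.06 and -2.66 in wild-type lungs and -8.64, -4.11 and -5.35 in knockout lungs, a mean change of -3.16. Reg3g minus Scgb1a1 was -5.71, -6.14 and -5.75 in wild-type lungs and -15.99, -8.34 and -11.25 in knockout lungs, a mean change of -5.99 that holds the undetected value of knockout 1. Without knockout 1 these mean changes were -1.86 and -3.93. In both, all 3 knockout lungs were below all 3 wild-type lungs. Scgb3a2 minus Scgb1a1 overlapped between genotypes, with a mean change of 0.03. Against the median of the measured ciliated cell genes, Scgb3a1 was lower in the knockout by a log2 difference of -2.95, or -1.71 without knockout 1. Only the change of such a value between lungs can be read, since probes differ in brightness.

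Scan day was tested in the same way. With genotype and scan day in the fit, 0 of 9 members and 2223 of 20242 genes (11%) had an adjusted p under 0.05 for day in limma. The lowest adjusted p of a member was 0.233, for Gabrp, at a log2 difference of -0.67 (SE 0.31), day 2 minus day 1. Within day 1 the only wild-type lung was wild type 13, and 8 of 9 members had a negative genotype difference there, Scgb1a1 being the exception. Within day 2 the only knockout lung was knockout 12, and 7 of 9 had a positive one, the exceptions being Scgb3a1 and Reg3g.

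The genes whose profiles over the 6 lungs were most like these were found by the root mean square difference between centred log2 signals, with no test. For Scgb3a1 they were Bpifb1 (0.70), Tff2 (0.82), Muc5b (0.84), Olfm4 (0.91) and Cyp2a5 (0.99), which encode a secreted BPI-fold protein, a trefoil peptide, a gel-forming mucin, an olfactomedin and a cytochrome P450. For Reg3g they were Bpifb1 (1.31), Scgb3a1 (1.68), Clca1 (1.69), Tff2 (1.81) and Olfm4 (2.31). Reg3g, in turn, ranked 152 in likeness to Scgb3a1. Olfm4 was detected on 3 arrays, those of the wild type. Its values in knockout 1, 11 and 12 (-9.26, -7.04 and -8.12) were below the lowest detected signals of those arrays. Clca1 was detected on 4 arrays and was below that limit in knockout 1 (-9.02). Bpifb1 measured 1.94, 0.88 and 1.72 in wild-type lungs and -5.24, -1.17 and -1.67 in knockout lungs. Muc5b measured 0.35, -0.29 and 1.45 in wild-type lungs and -3.16, 0.02 and -0.19 in knockout lungs, so that it was clearly low in knockout 1 alone. These likenesses rested in large part on knockout 1. Without it, Bpifb1 ranked 2219 and Tff2 4537 in likeness to Scgb3a1, Olfm4 ranked 8 and Cyp2a5 46, and Sox9 (0.24) and F5 (0.30) were nearest. Sox9 was detected on 5 arrays, and in knockout 12 (-6.37) it was below the lowest detected signal. For Reg3g without knockout 1, Bpifb1 ranked 4, Tff2 6, Olfm4 9 and Scgb3a1 17, and Cldn22 (0.54) was nearest.

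**Figure D4:**
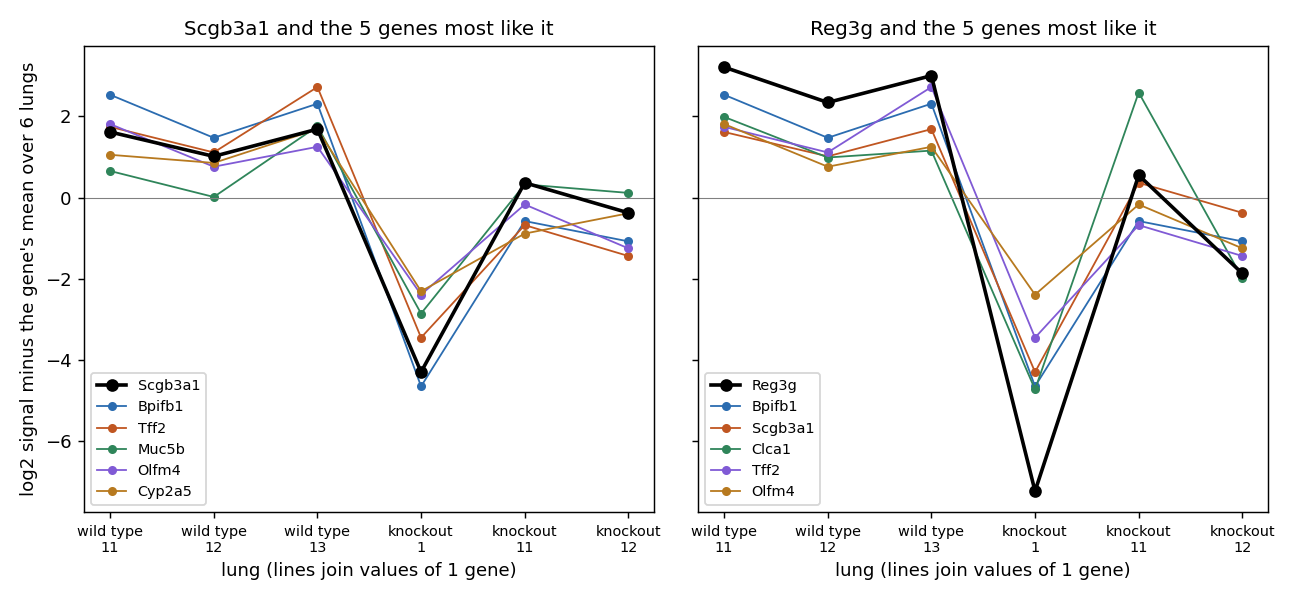
Log2 signal minus the mean of the gene over the 6 lungs for Scgb3a1 (left) and Reg3g (right), in black, and the 5 genes nearest to each, in colour. All lines have their lowest point in knockout 1, and Reg3g is high in the wild type and at its highest among knockout lungs in knockout 11. Olfm4 in the knockout lungs, and Clca1 and Reg3g in knockout 1, lie below the lowest detected signal of the array.

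Of 26 listed and measured other genes of club and secretory cells, 19 were higher and 7 lower in the knockout, 0 of the higher ones at an unadjusted p under 0.05 in limma. The median log2 difference was 0.13, or 0.30 without knockout 1, and it depended on the processing, at 0.03 with quantile normalization, 0.01 with normexp and 0.00 with the authors' values. It was -0.14 within day 1 and 0.48 within day 2. Cyp2a5, a cytochrome P450 of the airways, was the only one at an unadjusted p under 0.05, at 3.04, 2.84 and 3.67 in wild-type lungs and -0.32, 1.1 and 1.60 in knockout lungs. It differed by -2.39 (SE 0.53), and in limma the unadjusted p was 0.00366 and the adjusted p was 0.9998. Its probe may also detect the near-identical Cyp2a4. Sult1d1, a sulfotransferase, differed by -1.48 (SE 0.63) at an unadjusted p of 0.0565 in limma, with -2.69 in knockout 1 and -0.14 in knockout 12. In the other direction, Cbr2, a carbonyl reductase abundant in club cells, differed by 0.34 (SE 0.22), the detoxifying reductase gene Dcxr by 0.35 (SE 0.15) and the whey acidic protein family gene Wfdc2 by 0.35 (SE 0.18), none at an unadjusted p under 0.05 in limma.

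Relatives of the members were mostly dim. Of 33 listed secretoglobins, Reg proteins, paraoxonases, cholecystokinin, LY6/PLAUR and GABA receptor genes, 13 were measured, 4 higher and 9 lower, with a median of -0.05. Reg1, detected on 3 arrays, was the only other Reg gene measured. The other secretoglobins listed, and Reg3b, were below the minimum of 3 arrays or had no probe under those names. Among 24 measured regulators of secretory cells and of Reg3g, 11 were higher and 13 lower, with a median of -0.02 and 0 at an unadjusted p under 0.05 in limma. The transcription factor gene Foxa1 differed by -0.37 (SE 0.24), the interleukin 17 receptor gene Il17ra by -0.58 (SE 0.29), the Notch target Hes1 by -0.26 (SE 0.21) and the cytokine gene Il6, detected on 3 arrays, by -0.63 (SE 0.50). Nkx2-1, a transcription factor gene that drives secretoglobin genes and was chosen after its values were seen, lay between 1.12 and 1.13 in the wild type and between 1.16 and 1.27 in the knockout.

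Neighbouring cell types were described in the same way, beside the members. All 8 measured goblet cell genes were lower in the knockout, with a median of -0.70, or -0.42 without knockout 1, and -1.01 within day 1 against -0.09 within day 2. Tff2 differed by -3.71 (SE 0.78, unadjusted p of 0.00294 in limma) and Agr2, a chaperone for mucins, by -0.77 (SE 0.30, unadjusted p of 0.0423 in limma), while the other 6 did not reach an unadjusted p under 0.05. The summed signal of the list, relative to the 75th percentile, was 7.22 to 9.11 in wild-type lungs and 3.25 to 11 in knockout lungs. Such a sum weighs bright genes most. Muc16, the brightest of the list in the mean, measured 2.21, 1.73 and 0.56 in wild-type lungs and -0.21, -0.02 and 2.80 in knockout lungs. Its difference was -0.64 (SE 0.89), or 0.08 with scan day as a block, and day 2 minus day 1 was 2.16. Muc5ac, Fcgbp and Gcnt3 were not measured. The centred median of the goblet list was -1.11 in knockout 1, where Scgb3a1 and Reg3g were lowest. Of 13 ciliated cell genes, 8 were higher and 5 lower, with a median of 0.04 and 0 at an unadjusted p under 0.05 in limma. The ciliated median was -0.45 within day 1 and 0.64 within day 2. Without knockout 1 it was 0.20, with 12 of these genes higher and 1 lower. Their centred medians were -0.34, -0.12 and 0.31 in wild-type lungs and -0.28, 0.00 and 0.37 in knockout lungs, so wild type 13 was the highest wild-type lung for this list and for 7 members. Of 10 alveolar type 2 genes, 8 were higher and 2 lower, with a median of 0.05. Of 9 basal and squamous genes 2 were higher and 7 lower, with a median of -0.22, and the keratin gene Krt15 differed by -1.46 (SE 0.44, unadjusted p of 0.0150 in limma). Of 6 neuroendocrine and tuft cell genes 1 was higher and 5 lower, with a median of -0.22.

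Airway gland and non-epithelial genes were described last. Of 12 genes of airway glands and nasal or salivary epithelium, 5 were measured, 2 higher and 3 lower, with a median of -0.87. The 3 lower genes were each at an unadjusted p under 0.05 in limma. Bpifa1, a secreted BPI-fold protein of the upper and conducting airways, differed by -9.83 (SE 0.70), Bpifb1 by -4.20 (SE 1.08) and Ltf, or lactoferrin, by -0.87 (SE 0.25). Bpifa1 measured 4.0, 3.22 and 3.68 in wild-type lungs and -7.79, -5.10 and -5.69 in knockout lungs, and was not well above background in knockout 1.

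All 12 neutrophil genes, Ltf among them, were lower in the knockout, 3 of them at an unadjusted p under 0.05 in limma, with a median of -1.35, or -0.97 without knockout 1. Their centred medians were 1.42, 0.87 and -0.29 in wild-type lungs and -1.40, 0.57 and -1.44 in knockout lungs, so knockout 11 was high and knockout 1 and 12 were low. The summed signal of the 12 genes was 91.4 to 331 in wild-type lungs and 48.0 to 204 in knockout lungs. Scgb3a1 and Reg3g were also highest in knockout 11 among the knockout lungs. The median neutrophil difference was 0.19 within day 1, with 1 wild-type lung, and -2.82 within day 2, with 1 knockout lung. The list of thyroid and skeletal muscle genes had 7 of 7 measured genes higher, with a median of 1.65 that became -0.48 without knockout 1. Of 5 measured liver-type genes 0 were higher and 5 lower, with a median of -0.44, or -1.29 without knockout 1. The part of these cells and tissues in the levels of the members was not tested.

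**Figure D5:**
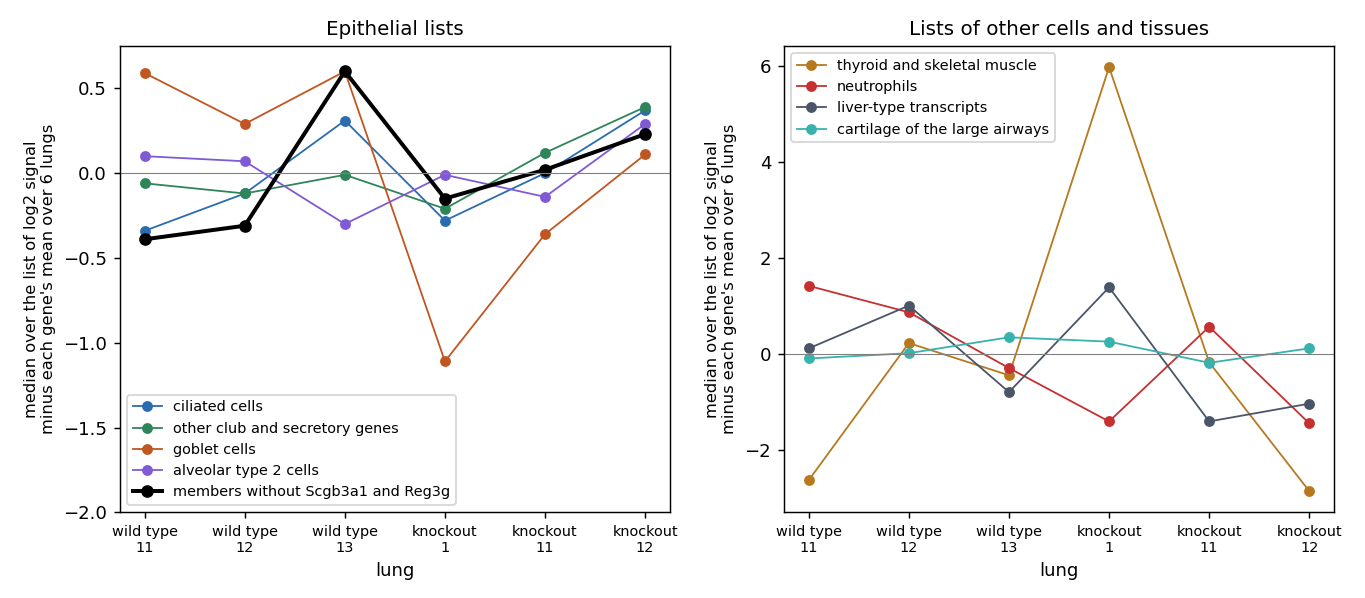
Median over each list of the log2 signal minus the mean of the gene over the 6 lungs, for epithelial lists with the members other than Scgb3a1 and Reg3g in black (left) and for lists of other cells and tissues (right). The goblet list is lowest in knockout 1, at -1.11, and the thyroid and skeletal muscle list is highest there, at 5.97, while the other 7 members stay between -0.39 and 0.60.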

How the data were processed

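Total RNA of 6 lungs was measured on 1-colour Agilent 014868 mouse arrays. The deposited scanner files hold an intensity per spot, which the scanner software had background-subtracted and detrended, per the file headers (Feature Extraction 9.5.1.1). The submitters' processing notes name version 9.1. The authors' series matrix, used as an alternative, holds values read here as log2 intensities. How the authors made it is not stated in those sources.

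Control spots and outlier spots were left out and spots of a probe averaged. Log2 of the processed intensity minus the 75th percentile of each array was analysed. A gene was represented by its brightest probe among those detected above background on 3 or more arrays, and 32704 of 41144 probes were named through RefSeq. The test between genotypes was that of limma 3.58.1, run in R 4.3.3 (two-sided, from lmFit and eBayes, no covariates, Benjamini-Hochberg adjustment over all 20242 genes), tested on simulated data. Intervals are at 95% from the same fit. The design calls the lungs individual biological replicates.

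Members, gene lists and the naming rule were chosen with earlier results of these data known. The rule took all members, up to 4 genes of a list with the smallest p and its highest-signal gene, and the 5 nearest profiles of members that spanned over 2 log2 units. Motifs were searched in the 250 bases before the start, and the transcribed bases of the RefSeq windows, first planned for the search, were left out. Alternatives covered scaling, background correction, the filter on dim probes, scan day, slide, the replicate number, the variance model, array weights and each lung left out. Figures were drawn with matplotlib 3.10.9.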

Additional observations from a re-analysis of the deposited data

How the results depend on the processing

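In all 18 alternatives Reg3g and Scgb3a1 stayed lower in the knockout, and 0 members passed an adjusted p of 0.05 in limma. On scan day 2 alone, with 1 knockout lung, Reg3g differed by -4.64 and Scgb3a1 by -1.69. In the other direction, Scgb3a2 differed there by 0.99 and Cckar by 0.75. Reg3g ranged from -7.40 to -3.44 and Scgb3a1 from -3.78 to -1.32 on the log2 scale. Raising Reg3g of knockout 1 to the lowest detected signal (-5.33) and the lists, counts, spreads and profiles without knockout 1 were chosen after seeing the data. Genes past an adjusted p of 0.05 numbered 0, and became 1 with normexp, the authors' values or the trended and robust variance, and 2 with median scaling, slide as a random block or array weights. Genes at an unadjusted p under 0.05 numbered 190, and became 424 with scan day as a block, 721 with slide as a random block, 4216 with array weights, 449 on day 1 alone and 3871 on day 2 alone. Members at an unadjusted p under 0.05 numbered 1, and became 2 with quantile normalization, normexp, median scaling, the authors' values, no filter on dim probes, slide as a random block and the trended and robust variance. With array weights there were 3 (Reg3g, Scgb3a1 and Scgb3a2 at 0.68), in a setting where 4216 of all 20242 genes were also under 0.05. Leaving out 1 lung at a time gave 0 to 2 members and 92 to 1474 genes at an unadjusted p under 0.05, and 0 to 1 genes past the adjusted threshold. There were 0 members and 92 genes without wild type 11, 111 genes without wild type 12, 2 members and 1474 genes without wild type 13, 2 members without knockout 1, 2 members and 293 genes without knockout 11 and 864 genes without knockout 12. Signs turned for Scgb1a1 with quantile normalization (-0.08), for Chad and Lypd2 with array weights (0.11 and 0.05), on day 2 alone (0.41 and 0.11) and without wild type 13 (0.15 and 0.04, in ranges of -0.41 to 0.15 and -0.43 to 0.04 over the lungs left out), and on day 1 alone for Scgb3a2 (-0.67), Cckar (-0.19), Gabrp (-0.35) and Pon1 (-0.09). The cause was not tested. The replicate numbers 11 and 12 are shared by both genotypes, and the deviations of same-numbered lungs had correlations of -0.246 and 0.417. Over all pairs of lungs these correlations were positive within a scan day and negative across days. Wild type 11 and knockout 11 were scanned on different days. The correlations therefore cannot show whether the lungs numbered 11 and 12 are paired. With a replicate block over those 4 lungs, 630 genes and 3 members were at an unadjusted p under 0.05, Reg3g differed by -3.44, Scgb3a1 by -1.32, Scgb3a2 by 0.98, Chad by 0.30 and Lypd2 by 0.12. Another probe of a member could not be tried, since each has 1. A day alone has 1 lung of a genotype, whose spread is taken to equal that of the rest. Reg3g in knockout 1 was the only member value limited by background.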
